A study of Mus musculus with 15 samples.

Results

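Fatty acids are broken down in the liver by β-oxidation in mitochondria and in peroxisomes. Mitochondria take most chain lengths, and long chains enter them after carnitine carries the acyl group across the membrane. Mitochondrial acetyl-CoA feeds respiration or ketone bodies, the fuel that the liver exports between meals. Peroxisomes shorten very long chains and bile acid precursors, shorten the branched phytanic acid by α-oxidation, and hand the shortened products on. The 36 genes described here encode such enzymes. They were looked up by gene symbol, all 36 were found among 20101 genes in the count tables, and each was followed through its RefSeq transcript with the highest mean count. By the known location of their products, 19 are mitochondrial, 12 peroxisomal and 2 cytosolic, and 3 (Eci2, Crat and Acsl1) act in more than 1 compartment and were kept apart.

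The data are ribosome profiles, that is, sequenced mRNA fragments protected by ribosomes, from whole livers of male wild-type C57BL/6N mice of 8 to 10 weeks. No allele or agent was used, and all groups were kept in 12 h of light and 12 h of darkness per day for 2 weeks and then moved to constant darkness. From 24 h after the move, livers were collected every 4 h from circadian time 0 (CT0, in h) to CT24, that is at 7 times, with 2 mice at each. A p-value therefore rests on mice of a single day: on the spread within pairs in the fit to 7 times, and also on how far the times lie from the curve in the cosine fit. Mice of later times had been in darkness for longer, and CT0 and CT24 alone share an hour of the day. CT0 opens and CT12 closes the subjective day, the resting phase of the mouse.

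The 14 libraries held from 40593197 to 90458783 counted reads (median 56446208), of which the 36 members took 0.315% to 0.671%. Levels are given in CPM, counts brought to the same library size, after TMM scaling, which sets libraries to a common level from the bulk of transcripts. Ribosome densities are the CPM of coding reads per kb of coding sequence. Markers of hepatocytes were abundant in all libraries (summed density from 22959 to 31292), and those of skeletal muscle were at or near 0 (0 to 0.173). The 5 pancreatic acinar markers summed to 1760 in CT20 replicate 2 and to at most 35.0 elsewhere. Every count in CT16 replicate 2 was even, against 48.9% to 50.4% of nonzero counts elsewhere. The labels list a second run of this replicate and point to the same table for its data. The clock genes had fitted peaks at CT8.54 (Nr1d1), CT11.2 (Dbp), CT16.5 (Per2) and CT23.0 (Arntl).

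A 24-h cosine fitted by edgeR's quasi-likelihood method was called at a Benjamini-Hochberg adjusted p under 0.05 over all transcripts tested. It called 14 of the 36 members (38.9%), where 11.2% of all 17299 transcripts tested were called. Among the 815 transcripts with a level between the quartiles of the members' own levels, 22.6% were called. Of the mitochondrial members, 3 of 19 were called (Cpt1a, Bdh1 and Pdk4, 15.8%), and of the peroxisomal members 6 of 12 (Crot, Acaa1a, Acot3, Acot4, Ehhadh and Hacl1, 50%). Both cytosolic members (Acot1 and Acot12) and all 3 members of more than 1 compartment were called. On the log2 scale, the median difference between fitted peak and trough was 0.34 for the mitochondrial members (1.26-fold), 0.63 for the peroxisomal members (1.55-fold) and 0.44 for all transcripts tested, but 0.315 for the 815 of a level like the members'. With libraries scaled by total counts these medians were 0.67, 0.90 and 0.64, so the mitochondrial median lay just above that of all transcripts instead of below it. The difference between mitochondrial and peroxisomal genes was not tested. The mitochondrial count was 1 with total counts, where 8.25% of all transcripts were called, 6 by the DESeq2 likelihood ratio test (15.6%) and 7 by the rank test JTK_CYCLE on TMM values (16.5%). Here and below, the adjusted p of JTK_CYCLE covers only the peak times it tries within a transcript. Unlike those of the other tests, it is not adjusted over transcripts. Among the 29 members with at most 5% of their coding sequence shared with another gene, in windows of 28 bases, 9 were called, 3 of 18 mitochondrial and 3 of 8 peroxisomal ones. In bulk liver, fewer cells of a type and less RNA per cell cannot be told apart, nor can more mRNA and more ribosomes on each mRNA in counts of bound ribosomes alone.

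The 14 called members peaked at different times of day. Crot and Bdh1 peaked by day and Cpt1a at its end. Acot12, Eci2 and Acaa1a followed at CT12.7 to CT14.3, Acot3 and Acot4 at CT16.7 and CT17.6, and Acot1, Acsl1, Ehhadh, Crat, Pdk4 and Hacl1 between CT19.9 and CT22.8. In all, 11 of the 14 peaked in the subjective night, where 1145 of the 1929 called transcripts of all genes did. Peak times are those of the fitted cosine, and their errors, like those of the peak-to-trough differences, are standard errors of a least-squares cosine fit to log2 CPM.

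**Figure D1:**
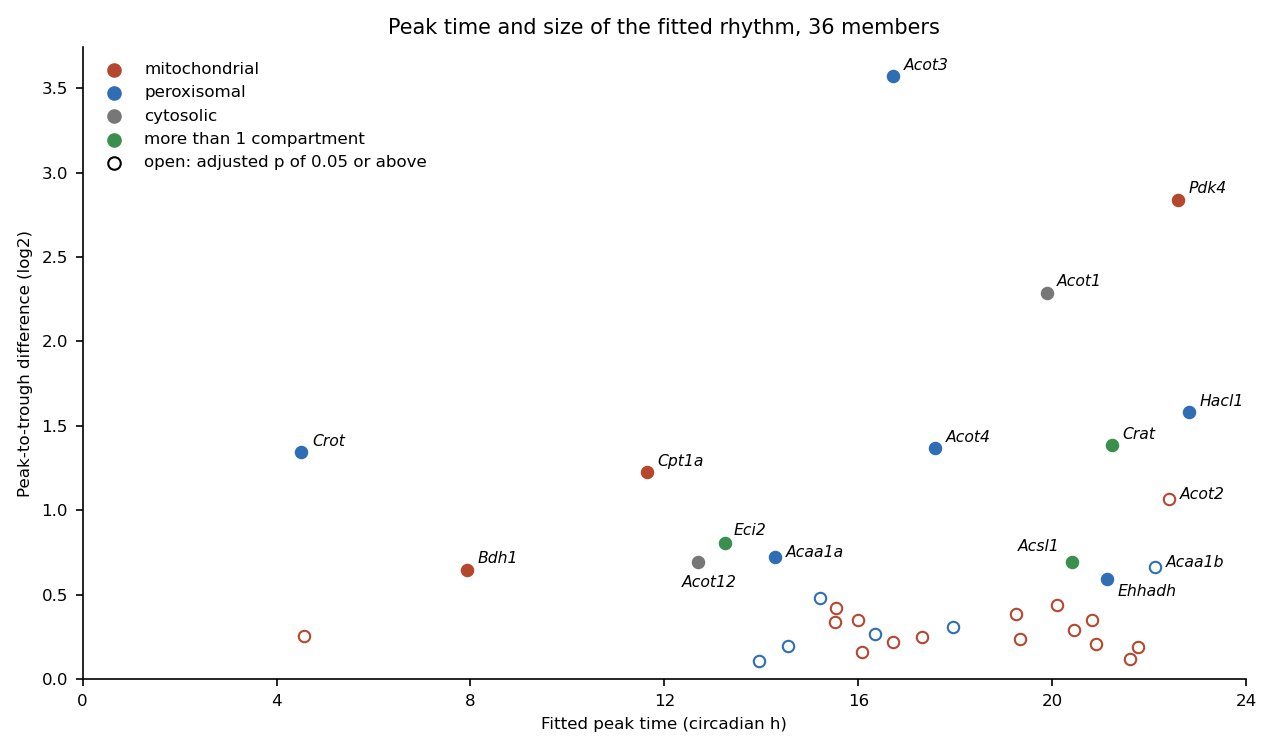
Fitted peak time (circadian h, x axis) and peak-to-trough difference (log2, y axis) of the 36 members, coloured by compartment and filled where the cosine fit had an adjusted p under 0.05. Acot3, Pdk4 and Acot1 stand highest at 3.57, 2.84 and 2.29, and all mitochondrial members but Cpt1a, Bdh1, Pdk4 and Acot2 lie below 0.5.

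Entry of long chains into mitochondria is set by Cpt1a, the carnitine palmitoyltransferase of the outer membrane (chr19:3322326-3385735, GRCm38). Cpt1a stood at 92.3 and 103 CPM at CT0, 102 and 100.02 at CT4, 180.1 and 144 at CT8, 226 and 216 at CT12, 165 and 162 at CT16, 83.3 and 88.7 at CT20 and 105 and 85.7 at CT24. All 4 libraries of CT8 and CT12 and both of CT16 were above the other 8. The mean was 221 ± 7.56 (SD, n = 2) at CT12 and 86.0 ± 3.87 at CT20, a 2.57-fold difference. The fitted rhythm had a peak-to-trough difference of 1.23 ± 0.14 (SE) and a peak at CT11.6 ± 0.501 h (adjusted p = 1.98e-05). Scaling by total counts in place of TMM moved all levels of a library together, by -0.44 (CT12 replicate 2) to 0.55 (CT0 replicate 1) on the log2 scale, and a cosine through these shifts had a peak-to-trough difference of 0.46 ± 0.19 (SE) and a peak at CT22.4. With that scaling, the difference for Cpt1a was 0.79 and its adjusted p 0.0899.

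Cpt2, the partner enzyme on the inner membrane that restores acyl-CoA, stood at 92.5 and 97.0 CPM at CT0, 85.6 and 89.9 at CT4, 78.9 and 78.2 at CT8, 62.8 and 78.7 at CT12, 115 and 101 at CT16, 91.9 and 107 at CT20 and 94.0 and 87.1 at CT24. The mean was highest at CT16 and lowest at CT12, where Cpt1a was highest, but single mice of other times overlapped both pairs in part. The peak-to-trough difference was 0.44 ± 0.13 (SE) with a peak at CT20.1 ± 1.09 h, and it was not called (adjusted p = 0.1004). It was called by the DESeq2 likelihood ratio test (adjusted p = 0.0389) and by JTK_CYCLE on TMM values (adjusted p = 0.0246), and with total counts as scale the difference was 0.91 (adjusted p = 0.0800). The JTK_CYCLE value of Cpt2 was adjusted only over the peak times tried within the transcript, not over transcripts as that of DESeq2 was. The ratio of the densities of Cpt1a and Cpt2, which no scaling between libraries can move, was 0.888 ± 0.0337 (SD, n = 2) at CT0 and 0.990 ± 0.0457 at CT4. It was 1.79 ± 0.279 at CT8, 2.74 ± 0.529 at CT12 and 1.30 ± 0.0954 at CT16, and then 0.743 ± 0.0490 at CT20 and 0.900 ± 0.0782 at CT24. Both mice of CT12 lay above all others and those of CT20 below all others.

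The promoter of Cpt1a is shown because its transcript had the lowest adjusted p among the mitochondrial members and because it holds the hexamer AGGTCA, to which nuclear receptors such as PPARα and REV-ERBα bind. The stretch is chr19:3323051-3323300 on the plus strand (GRCm38.p6, RefSeq), the 250 bases before a RefSeq start site that lies inside the annotated span of the gene, with the hexamer, here on the opposite strand as TGACCT, in capitals at bases -94 to -89.
Cpt1a: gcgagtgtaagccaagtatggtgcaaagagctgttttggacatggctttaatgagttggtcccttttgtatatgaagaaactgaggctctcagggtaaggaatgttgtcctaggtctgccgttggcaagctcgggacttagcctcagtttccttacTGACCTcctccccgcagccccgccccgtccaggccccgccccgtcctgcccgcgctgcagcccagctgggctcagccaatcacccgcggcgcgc
Promoters of 31 of the 36 members were searched, each from 250 bases before to 50 after the start site. Those of Crat, Acat1, Decr1, Hsd17b4 and Acaa2 were not searched. AGGTCA was found on either strand in 7 of these genes (Cpt1a, Acadm, Acadvl, Phyh, Acot3, Acot4 and Acot12) and in 16.3% of all 32851 promoters. The 31 genes have 34 promoters, and a gene counted if any of its promoters held the hexamer. The share of all is per promoter, so the 2 are not in the same unit. A pair of AGGTCA hexamers with 1 base between them, the usual PPARα element, was in no member promoter and in 0.0396% of all promoters. The D-box (TTACGTAA or TTATGTAA), the element of Dbp, was in none and in 1.06% of all.

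The mitochondrial spiral of β-oxidation has 13 members here, namely the 4 acyl-CoA dehydrogenases, the enzymes of the following steps, the auxiliary enzymes for unsaturated chains and the electron transfer proteins. None of the 13 was called, where 11.2% of all transcripts were, and their peak-to-trough differences ran from 0.12 in Etfa to 0.42 in Acadl, with a median of 0.26 against 0.44 for all transcripts and 0.315 for those of a level like the members'. Hadha and Acadl were called by the DESeq2 likelihood ratio test (2 of 13, against 15.6% of all transcripts), and with Etfdh by JTK_CYCLE on TMM values (3 of 13, against 16.5%). Hadha was called with a minimum of 100 counts (1 of 13, against 16.6% of all transcripts). Hadh was called without CT20 replicate 1 (adjusted p = 0.0478, 1 of 13, against 11.9%). With total counts as scale none of the 13 was called, against 8.25% of all transcripts, and the differences ran from 0.52 in Etfdh to 0.83 in Hadh, with a median of 0.60 against 0.64. By JTK_CYCLE on that scale, Acads and Etfdh were called, against 17.6% of all transcripts. None of these JTK_CYCLE calls was adjusted over transcripts.

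Acadm, the medium-chain acyl-CoA dehydrogenase, stood at 84.3 and 89.2 CPM at CT0, 80.2 and 94.3 at CT4, 90.9 and 84.1 at CT8, 77.8 and 92.2 at CT12, 102 and 106 at CT16, 79.9 and 92.6 at CT20 and 76.8 and 96.8 at CT24. Its peak-to-trough difference was 0.16 ± 0.12 (SE, adjusted p = 0.682), and the pairs of most times overlapped, with CT16 alone above the rest. The difference was 0.083 without CT16 replicate 2 and 0.52 with total counts as scale.

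Among the other dehydrogenases, Acadvl, for very long chains, averaged 161 CPM (from 134 to 193) and a peak-to-trough difference of 0.24 ± 0.09 (SE, adjusted p = 0.392). Acadl, for long chains, averaged 75.1 (from 58.9 to 94.7) with 0.42 ± 0.12 (SE, adjusted p = 0.0896). Acads, for short chains, averaged 82.9 (from 60.8 to 107) with 0.29 ± 0.15 (SE, adjusted p = 0.411), and its difference ran from 0.17 to 0.74 over the alternatives. None of these dehydrogenases passed the test.

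The trifunctional protein carries out the following 3 steps on long chains and is built from the subunits of Hadha and Hadhb. Hadha stood at 157 and 167 CPM at CT0, 150.4 and 155 at CT4, 174 and 159 at CT8, 177 and 187 at CT12, 182 and 224 at CT16, 174 and 187 at CT20 and 166 and 174 at CT24. It was highest in CT16 replicate 2, and its peak-to-trough difference of 0.35 ± 0.07 (SE) was not called (adjusted p = 0.0820). Hadhb averaged 43.4 (from 34.8 to 52.0) with 0.34 ± 0.10 (SE) and a peak at CT15.5 ± 1.10 h (adjusted p = 0.184), beside CT16.0 ± 0.706 h for Hadha. The ratio of their densities kept within 2.27 and 2.93 in all 14 libraries (median 2.51). Hadhb has 3 transcripts in the tables, and the density is that of the transcript with the most reads.

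Both genes start from the same short stretch of chromosome 5 in opposite directions, which is shown because the pair had nearly the same fitted peak time. It runs between the start sites, chr5:30154981-30155252 (GRCm38, 272 bases, 60.3% G and C), and is printed on the plus strand, with Hadha leaving to the left and Hadhb to the right.
Hadha-Hadhb: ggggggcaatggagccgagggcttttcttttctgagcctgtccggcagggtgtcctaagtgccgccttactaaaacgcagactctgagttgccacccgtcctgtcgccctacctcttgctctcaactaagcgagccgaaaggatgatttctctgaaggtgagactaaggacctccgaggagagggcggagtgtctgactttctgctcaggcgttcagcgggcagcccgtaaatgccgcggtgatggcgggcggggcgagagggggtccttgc
None of the motifs named above was found in the promoter windows of either gene.

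Downstream in the spiral, Hadh, the hydroxyacyl-CoA dehydrogenase for shorter chains, averaged 109.7 (from 87.5 to 140.4) CPM with a peak-to-trough difference of 0.38 ± 0.13 (SE, adjusted p = 0.176). Acaa2, the mitochondrial thiolase, averaged 411 (from 362 to 495) with 0.25 ± 0.08 (SE, adjusted p = 0.292), and its density of 340.4 was the highest among mitochondrial members. Eci1, which repositions unsaturated bonds, averaged 53.1 (from 41.1 to 63.8) with 0.21 ± 0.13 (SE, adjusted p = 0.608). Decr1, which reduces them, averaged 65.5 (from 58.2 to 76.3) with 0.22 ± 0.08 (SE, adjusted p = 0.427).

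The electron transfer flavoprotein, which passes electrons from the dehydrogenases to the respiratory chain, consists of the products of Etfa and Etfb. Etfa averaged 119 (from 106 to 134) CPM with 0.12 ± 0.07 (SE, adjusted p = 0.737), and Etfb averaged 142 (from 105 to 166) with 0.35 ± 0.13 (SE, adjusted p = 0.221). The density of Etfa was below that of Etfb in all 14 libraries, at 0.497 to 0.828 of it. Etfdh, its oxidoreductase, averaged 84.6 (from 75.2 to 98.0) with 0.26 ± 0.06 (SE) and, unlike the others of the spiral, a fitted peak by day, at CT4.56 ± 0.842 h (adjusted p = 0.278).

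**Figure D2:**
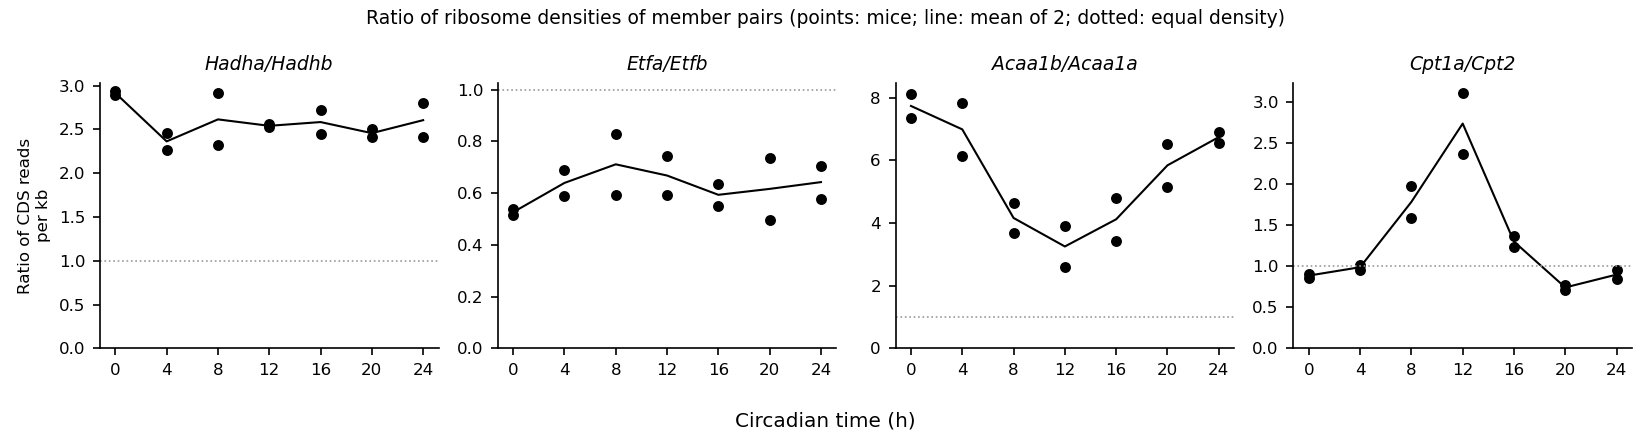
Ratio of ribosome densities (coding reads per kb) of 4 pairs of members against circadian time (h), with 1 point per mouse and a line through the means of 2 mice. Hadha/Hadhb stays between 2.27 and 2.93, whereas Acaa1b/Acaa1a is lowest and Cpt1a/Cpt2 highest at CT12.

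Ketone body formation was represented by Acat1 and Bdh1. Bdh1 reduces acetoacetate to the exported ketone body β-hydroxybutyrate (chr16:31422297-31458901). Bdh1 stood at 64.8 and 64.4 CPM at CT0, 73.3 and 74.9 at CT4, 105 and 84.0 at CT8, 66.5 and 79.3 at CT12, 65.5 and 64.1 at CT16, 55.0 and 54.6 at CT20 and 62.6 and 63.5 at CT24. Both mice of CT8 lay above the other 12, and both of CT20 below. The means were 94.3 ± 14.6 (SD, n = 2) and 54.8 ± 0.302, and the fitted difference was 0.65 ± 0.09 (SE) with a peak at CT7.93 ± 0.521 h (adjusted p = 0.00347). In Bdh1, 14.4% of the reads lay in the 5′UTR, and the call held with coding reads alone. With total counts as scale, the difference was 0.37 (adjusted p = 0.559). Acat1, the thiolase that joins acetyl-CoA units to acetoacetyl-CoA, stood at 133 and 150.1 CPM at CT0, 145 and 134 at CT4, 132 and 115 at CT8, 114 and 133 at CT12, 128 and 159.5 at CT16, 127 and 146 at CT20 and 140.5 and 143 at CT24. Its pairs overlapped between most times, with a difference of 0.19 ± 0.09 (SE, adjusted p = 0.520), which was 0.67 (adjusted p = 0.140) with total counts as scale.

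Pdk4, the kinase that switches off pyruvate dehydrogenase and so spares glucose when fat is burned, was among the least translated members (density 1.48) and among the most changed. Pdk4 stood at 2.75 and 2.31 CPM at CT0, 1.36 and 2.97 at CT4, 0.225 and 0.823 at CT8, 0.835 and 0.399 at CT12, 1.31 and 1.07 at CT16, 1.71 and 5.14 at CT20 and 4.16 and 3.63 at CT24. The counts behind these levels were 18 to 306 per library. Means were 3.89 ± 0.375 (SD, n = 2) at CT24 and 0.524 ± 0.423 at CT8, a 7.43-fold difference, and the pairs of CT8 and CT12 lay below all others. The fitted difference was 2.84 ± 0.52 (SE) with a peak at CT22.6 ± 0.732 h (adjusted p = 7.90e-04). The mice of CT20 lay apart, at 1.71 and 5.14, and the higher is the library with acinar markers. Without it the call held.

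Peroxisomal β-oxidation runs through Ehhadh and Hsd17b4, the bifunctional proteins, and the thiolases of Acaa1a and Acaa1b. Ehhadh, a classical PPARα target, stood at 207 and 207 CPM at CT0, 192 and 166 at CT4, 157 and 137 at CT8, 131 and 154 at CT12, 219 and 184 at CT16, 180.1 and 243 at CT20 and 201 and 194 at CT24. The 4 libraries of CT8 and CT12 were the lowest. The fitted difference was 0.59 ± 0.12 (SE) with a peak at CT21.1 ± 0.779 h (adjusted p = 0.0124), and without CT8 replicate 2 the adjusted p was 0.0518. With total counts as scale, the difference was 1.07 (adjusted p = 0.0290). Hsd17b4 averaged 228 (from 204 to 268) CPM with 0.26 ± 0.09 (SE, adjusted p = 0.291).

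Acaa1a and Acaa1b are copies on chromosome 9 whose coding sequences of 1275 bases are 96.5% identical. Of all windows of 28 bases, about the length of a footprint, in the coding sequence of Acaa1a, 53.0% also occur in Acaa1b, and the longest identical run is 327 bases. The methods used reads with a unique location for density profiles and do not say whether the count tables were made the same way. In these tables, 18 coding sequences occur at 2 places in the genome. Of these, 12 had 0 coding counts at both places in all 14 libraries, and the other 6 had the same count at both in each library. Reads from identical runs of Acaa1a and Acaa1b may therefore be missing from both levels or be counted in both, and both levels are uncertain. The first 60 coding bases are shown to make this plain, with the base that differs in capitals.
Acaa1b: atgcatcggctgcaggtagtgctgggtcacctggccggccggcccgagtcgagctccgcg
Acaa1a: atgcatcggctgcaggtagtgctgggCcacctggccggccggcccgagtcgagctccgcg
Their counts differed in all 14 libraries.

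Acaa1a stood at 40.01 and 46.2 CPM at CT0, 43.3 and 42.6 at CT4, 63.4 and 47.4 at CT8, 65.4 and 65.0 at CT12, 80.5 and 67.4 at CT16, 43.9 and 60.2 at CT20 and 44.9 and 53.7 at CT24. Both mice of CT16 lay above all others and the means of CT0 and CT4 were lowest, with a fitted difference of 0.72 ± 0.14 (SE) and a peak at CT14.3 ± 0.781 h (adjusted p = 0.00517). With total counts as scale it was 0.68 (adjusted p = 0.215). Acaa1b stood at 271 and 328 CPM at CT0, 290.1 and 216 at CT4, 241 and 133 at CT8, 133 and 223 at CT12, 322 and 207 at CT16, 247 and 268 at CT20 and 258 and 291 at CT24. Its mice of CT8, of CT12 and of CT16 lay far apart, and its difference of 0.67 ± 0.24 (SE) with a peak at CT22.1 ± 1.37 h was not called (adjusted p = 0.0974), although it was with total counts as scale (1.15, adjusted p = 0.04995), without CT16 replicate 1 (adjusted p = 0.0343) and by the DESeq2 likelihood ratio test (adjusted p = 0.0307). The ratio of the densities of Acaa1b and Acaa1a was 7.74 ± 0.533 (SD, n = 2) at CT0 and 6.99 ± 1.19 at CT4. It was 4.16 ± 0.679 at CT8, 3.25 ± 0.945 at CT12 and 4.12 ± 0.974 at CT16, and then 5.84 ± 0.973 at CT20 and 6.74 ± 0.246 at CT24. The mice of CT0, CT4, CT20 and CT24 all lay above those of CT8, CT12 and CT16.

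Crot, the carnitine octanoyltransferase that readies shortened chains for leaving the peroxisome (chr5:8966033-8997146), was alone among the peroxisomal members in peaking by day. Crot stood at 206 and 259.6 CPM at CT0, 319 and 391 at CT4, 299 and 342 at CT8, 193 and 189 at CT12, 124 and 133 at CT16, 165 and 227 at CT20 and 263 and 309.7 at CT24. The pairs of CT4 and CT16 did not overlap, with means of 355 ± 50.8 (SD, n = 2) and 129 ± 6.44. The fitted difference was 1.34 ± 0.17 (SE) with a peak at CT4.52 ± 0.442 h (adjusted p = 5.98e-05), and the call held under all 30 alternatives.

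The α-oxidation of phytanic acid begins with Phyh, a hydroxylase, and goes on with Hacl1, the lyase that splits off the terminal carbon. Hacl1 (chr14:31607226-31640965) had the lowest adjusted p of all members. Hacl1 stood at 253 and 221 CPM at CT0, 178 and 202 at CT4, 118 and 128 at CT8, 76.5 and 83.5 at CT12, 156 and 134 at CT16, 266 and 305 at CT20 and 252 and 255 at CT24. Both mice of CT12 lay below all others and both of CT20 above, with means of 80.0 ± 4.93 and 285 ± 28.1 (SD, n = 2). The fitted difference was 1.58 ± 0.16 (SE) with a peak at CT22.8 ± 0.424 h (adjusted p = 5.65e-06), and the call held under all 30 alternatives. Phyh had the highest density of all members (662), averaged 680.4 (from 590.5 to 773) CPM and had a fitted difference of 0.19 ± 0.07 (SE, adjusted p = 0.427). The difference between the courses of Hacl1 and Phyh was not tested.

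Decr2, the peroxisomal dienoyl-CoA reductase, and Pecr, the peroxisomal enoyl-CoA reductase, were not called. Decr2 averaged 78.5 (from 64.5 to 106) CPM with 0.48 ± 0.15 (SE, adjusted p = 0.0769), and was called without CT12 replicate 1 (adjusted p = 0.0173), by the DESeq2 likelihood ratio test (adjusted p = 0.0265) and by JTK_CYCLE on TMM values (adjusted p = 0.0382). Pecr averaged 107 (from 89.9 to 123) and had the smallest difference of all members, 0.11 ± 0.11 (SE, adjusted p = 0.835). With total counts as scale its difference was 0.41, and that of Bdh1 was the smallest, 0.37. The JTK_CYCLE value of Decr2 was adjusted only over the peak times tried within the transcript, not over transcripts.

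**Figure D3:**
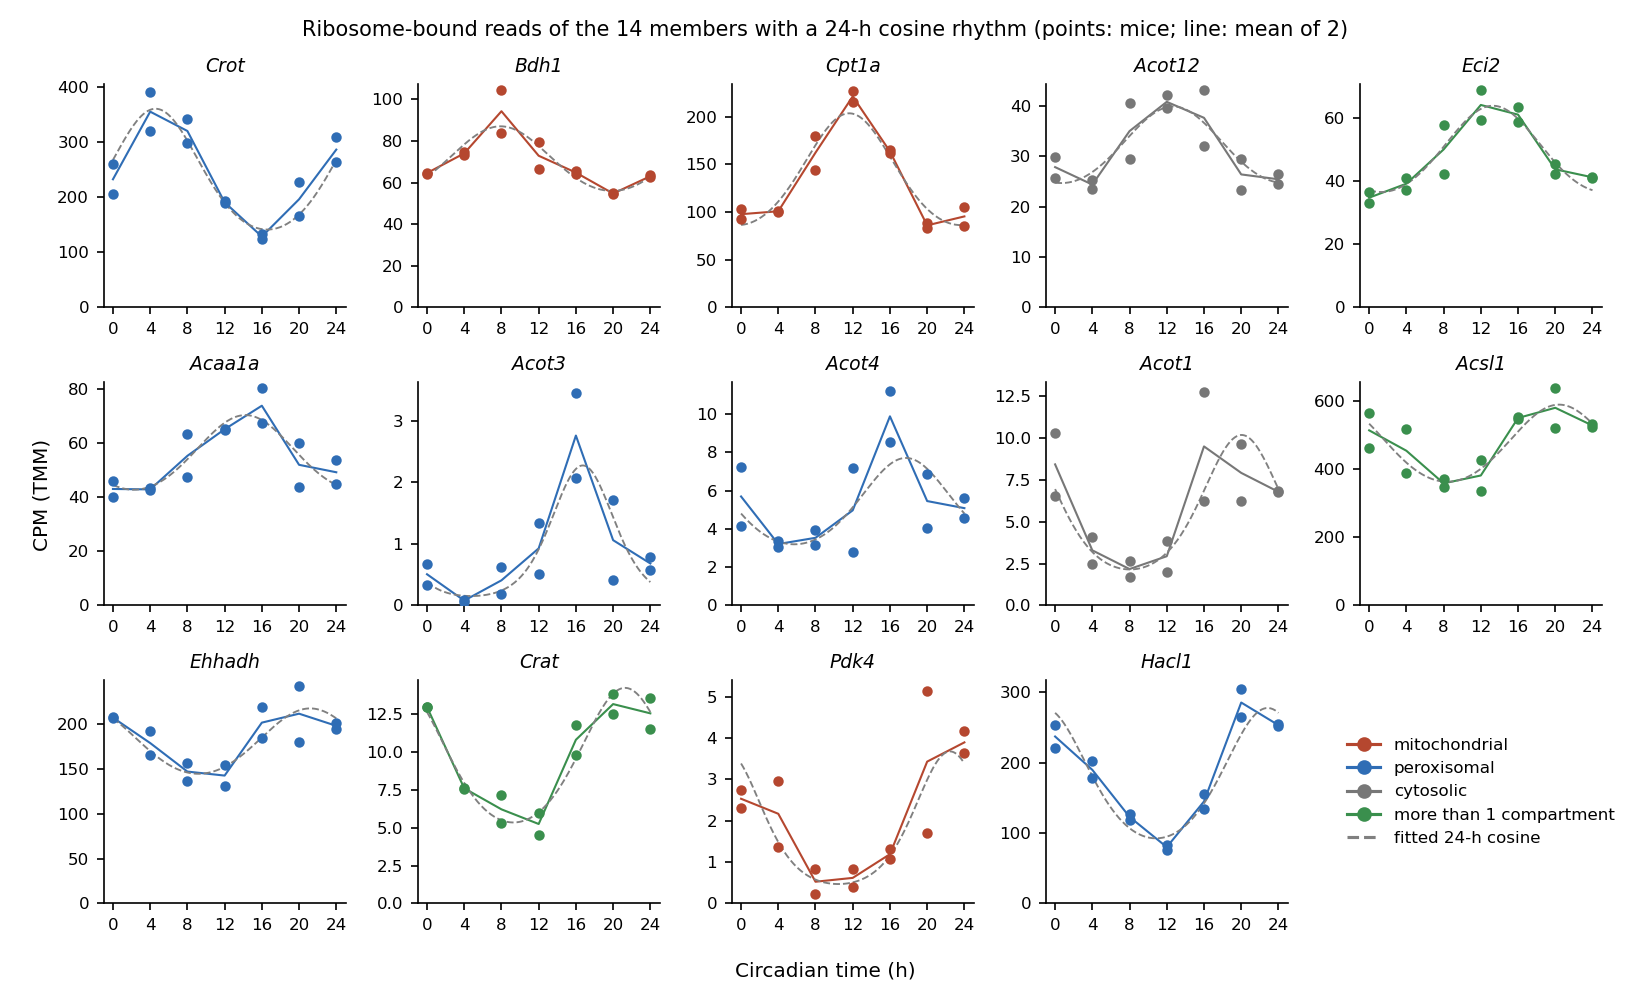
CPM (TMM) against circadian time (h) for the 14 called members, with 1 point per mouse, a line through the means of 2 mice and the fitted cosine dashed, in order of peak time. Crot peaks at CT4, Cpt1a at CT12 and Hacl1 at CT20, and each axis starts at 0.

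Acyl-CoA thioesterases release free fatty acids and CoA. Acot1, Acot2, Acot3 and Acot4 lie next to each other on chromosome 12 (from 83987861 to 84060400), and their products go to the cytosol, the mitochondria and, for the last pair, the peroxisomes. Of the 28-base coding windows, 70.4% of Acot1, 57.5% of Acot2, 32.4% of Acot3 and 26.8% of Acot4 occur in another gene, so these levels carry the same uncertainty. The first 60 coding bases of Acot1 and Acot4 are given with the 8 that differ in capitals, to show how close even these are.
Acot1: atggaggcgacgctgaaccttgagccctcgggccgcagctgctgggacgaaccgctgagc
Acot4: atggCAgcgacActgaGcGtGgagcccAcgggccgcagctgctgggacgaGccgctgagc

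Acot1 stood at 6.55 and 10.3 CPM at CT0, 4.09 and 2.49 at CT4, 2.63 and 1.71 at CT8, 2.03 and 3.85 at CT12, 12.8 and 6.24 at CT16, 6.21 and 9.63 at CT20 and 6.76 and 6.81 at CT24. The pairs of CT4, CT8 and CT12 lay below all others, with a fitted difference of 2.29 ± 0.39 (SE) and a peak at CT19.9 ± 0.619 h (adjusted p = 5.53e-04), and the call held under all 30 alternatives. Acot3, the member with the lowest density (0.690), stood at 0.675 and 0.337 CPM at CT0, 0.0619 and 0.0952 at CT4, 0.624 and 0.190 at CT8, 0.516 and 1.34 at CT12, 3.45 and 2.07 at CT16, 0.404 and 1.71 at CT20 and 0.573 and 0.788 at CT24. Its counts were only 4 to 211 per library, the pair of CT4 was lowest and that of CT16 highest, and the fitted difference was 3.57 ± 0.82 (SE) with a peak at CT16.7 ± 0.724 h (adjusted p = 0.00271). Over the alternatives the difference ran from 1.95 to 4.24.

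Acot4 stood at 7.24 and 4.15 CPM at CT0, 3.07 and 3.35 at CT4, 3.93 and 3.13 at CT8, 2.77 and 7.17 at CT12, 11.2 and 8.54 at CT16, 4.02 and 6.89 at CT20 and 4.55 and 5.62 at CT24. The pair of CT16 was highest, the fitted difference was 1.37 ± 0.40 (SE) with a peak at CT17.6 ± 1.06 h (adjusted p = 0.0207), and the adjusted p was 0.0572 without CT4 replicate 1, 0.0537 without CT8 replicate 2, 0.0925 without CT16 replicate 1 and 0.0591 without CT16 replicate 2. By JTK_CYCLE, without adjustment over transcripts, it was 0.0767 on TMM values and 0.112 on total counts. Acot2 averaged 1.28 (from 0.348 to 2.37) on 22 to 148 counts per library, with 1.06 ± 0.53 (SE, adjusted p = 0.282). Acot8, a peroxisomal thioesterase of another family that shares no window with other genes, averaged 8.62 (from 6.80 to 10.8) with 0.31 ± 0.17 (SE, adjusted p = 0.476).

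Acot4 was the only member with the E-box CACGTG, to which CLOCK and BMAL1 bind, in its promoter window. The element was in 7.15% of all promoters. It lay at bases -66 to -61 from a RefSeq start site inside the annotated span of the gene, and the 30 bases around it are given, as are those around the TGACCT of Acot12 at bases -110 to -105 from a start site likewise inside the gene, to show each element in its sequence. Whether either bears on the rhythm was not tested.
Acot4: ctttcacaacacCACGTGggagtggcgaga
Acot12: ctcgtaggacccTGACCTctcacctcctaa

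Acot12, which hydrolyses acetyl-CoA in the cytosol, stood at 25.8 and 30.0 CPM at CT0, 25.4 and 23.5 at CT4, 40.6 and 29.4 at CT8, 42.2 and 39.5 at CT12, 43.3 and 32.05 at CT16, 23.4 and 29.5 at CT20 and 24.4 and 26.5 at CT24. The pair of CT12 and 1 mouse each of CT8 and CT16 were between 39.5 and 43.3, and all other mice were lower. The fitted difference was 0.69 ± 0.14 (SE) with a peak at CT12.7 ± 0.898 h (adjusted p = 0.00773), and 0.46 (adjusted p = 0.478) with total counts as scale. By JTK_CYCLE on TMM values, the p-value was 0.0515, without adjustment over transcripts.

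All 3 members of more than 1 compartment were called. Acsl1, the acyl-CoA synthetase that activates most long chains in liver, stood at 566 and 462 CPM at CT0, 390.0 and 519 at CT4, 370.0 and 347 at CT8, 335 and 428 at CT12, 547 and 554 at CT16, 521 and 639 at CT20 and 534 and 523 at CT24. The pairs of CT16, CT20 and CT24 lay above those of CT8 and CT12, with a fitted difference of 0.70 ± 0.13 (SE) and a peak at CT20.4 ± 0.688 h (adjusted p = 0.00550). It was 1.17 with total counts as scale (adjusted p = 0.00833). Eci2, an enoyl-CoA isomerase, stood at 36.4 and 33.1 CPM at CT0, 37.3 and 41.0 at CT4, 57.7 and 42.3 at CT8, 59.4 and 68.8 at CT12, 58.6 and 63.4 at CT16, 42.1 and 45.3 at CT20 and 41.1 and 41.3 at CT24. The pairs of CT12 and CT16 lay above all other mice, and the fitted difference was 0.81 ± 0.11 (SE) with a peak at CT13.2 ± 0.557 h (adjusted p = 5.31e-04). With total counts as scale it was 0.58 (adjusted p = 0.226). Of its 28-base windows, 22.1% occur in another gene, Eci3, and 18.8% of its reads lay in the 5′UTR.

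Crat, carnitine acetyltransferase, balances acetyl-CoA against acetylcarnitine (chr2:30400476-30416017). Crat stood at 13.0 and 13.0 CPM at CT0, 7.64 and 7.60 at CT4, 7.14 and 5.30 at CT8, 4.51 and 6.00 at CT12, 11.8 and 9.85 at CT16, 13.9 and 12.5 at CT20 and 11.6 and 13.6 at CT24. The pairs of CT0, CT20 and CT24 lay above those of CT4, CT8 and CT12, with means of 13.2 ± 0.969 (SD, n = 2) at CT20 and 5.25 ± 1.06 at CT12. The fitted difference was 1.39 ± 0.16 (SE) with a peak at CT21.2 ± 0.437 h (adjusted p = 4.02e-05), and the call held under all 30 alternatives.

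**Figure D4:**
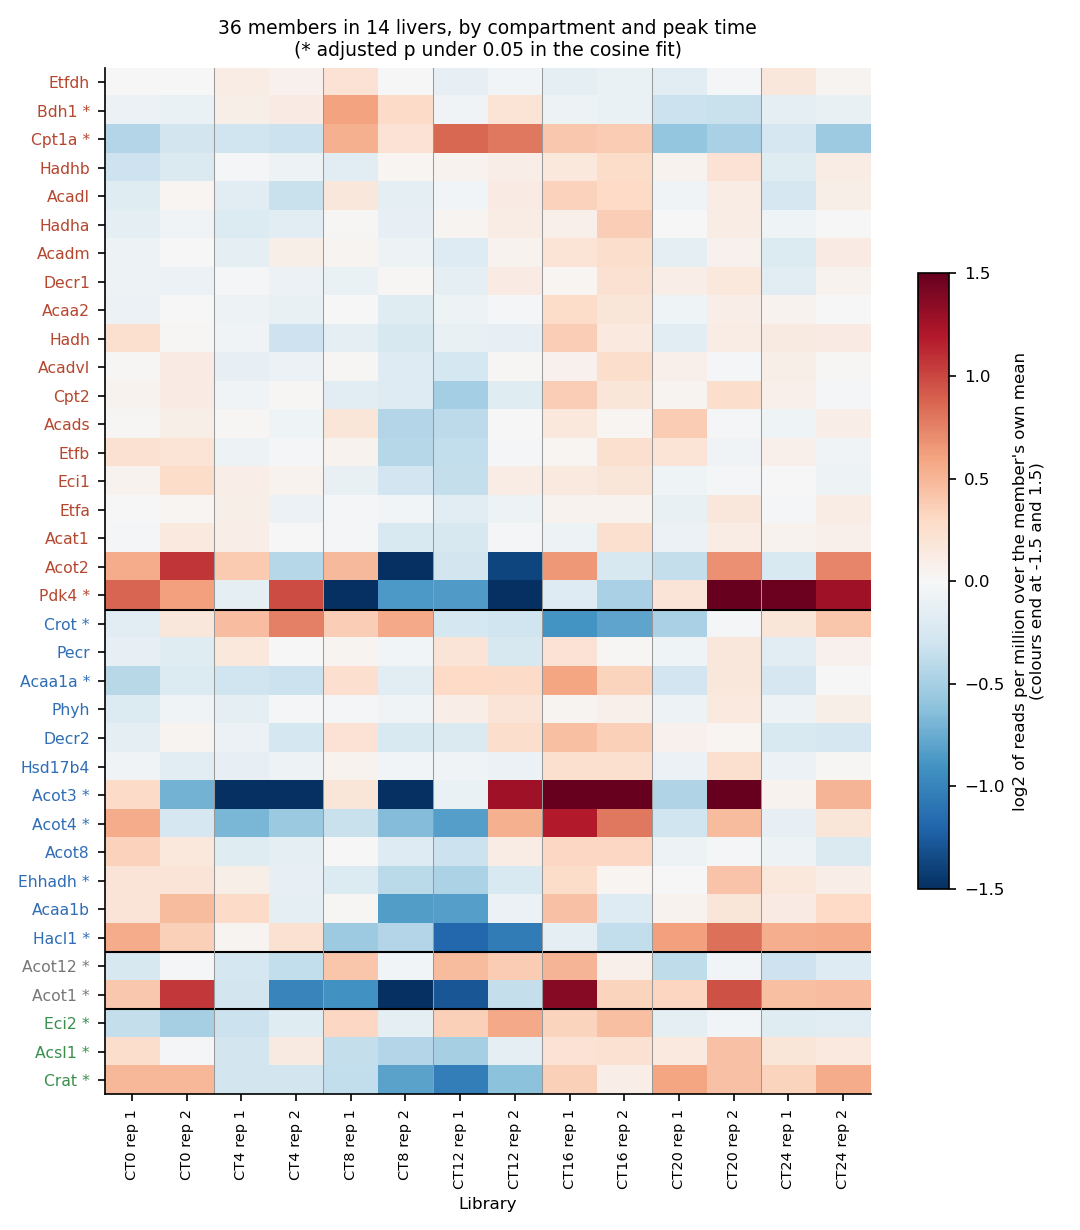
Log2 of the CPM of each of the 36 members over its own mean in each of the 14 libraries, grouped by compartment and ordered by fitted peak time, with an asterisk where the cosine fit had an adjusted p under 0.05. Most mitochondrial rows are pale throughout, and those of Cpt1a, Hacl1, Crat, Crot, Pdk4 and the Acot genes change colour over the day.

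Of the 36 members, 19 had their highest time mean at CT16, among them 11 mitochondrial and 7 peroxisomal ones, and 12 had their lowest at CT12. The shares of all transcripts that were highest or lowest at these times are not given here. The members' count at CT16 was also 19 without either CT16 library. With total counts as scale, 15 members were highest at CT16 (6 mitochondrial and 6 peroxisomal ones) and 19 at CT0, and 19 were lowest at CT12. Markers of other liver cells were on average lower at CT16 than at the other times, though not in each library. The 5 stellate cell markers summed to 60.6 and 52.2 there and to 60.3 to 82.5 in the other libraries, the 6 Kupffer cell markers to 37.7 and 52.2 against 44.7 to 62.9, and the 5 sinusoidal endothelial markers to 38.5 and 35.7 against 38.4 to 49.0. Each of these 16 markers averaged less at CT16 than elsewhere, and none was at 0 in all libraries. The 6 hepatocyte markers summed to 31292 and 22959 at CT16, the highest and the lowest value of the 14 libraries. Their part in the members' levels at CT16 was not tested. The summed level of the 19 mitochondrial members was 2298 ± 42.6 CPM (SD, n = 2) at CT16 and between 1924 and 2025 at the other times. That of the 12 peroxisomal members was lowest at CT12, 1822 ± 113, and nearly the same at CT20 and CT24, 2144 ± 271 and 2145 ± 137. On the scale of total counts, both sums were highest at CT0. The ratio of the peroxisomal to the mitochondrial sum, which scaling cannot move, was 1.08 ± 0.0274 at CT4 and 1.06 ± 0.0888 at CT20, against 0.901 ± 0.00806 at CT12 and 0.884 ± 0.0724 at CT16, so both mice of CT12 and of CT16 lay below those of CT4 and CT20.

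Mean densities ran from 0.690 in Acot3 to 662 in Phyh. The medians were 64.2 for mitochondrial and 93.0 for peroxisomal members, against 2.29 for all transcripts tested. Acaa2 (340.4), Acsl1 (219), Acaa1b (183) and Etfb (182) followed Phyh. Neighbours in the order overlapped in their ranges over the 14 libraries except for Phyh and Acaa2, Acaa2 and Acsl1, and Acot12 and Acot8. Pdk4, Acot2, Acot3, Acot4, Acot1 and Crat, all at 5.12 or below, were the 6 lowest.

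**Figure D5:**
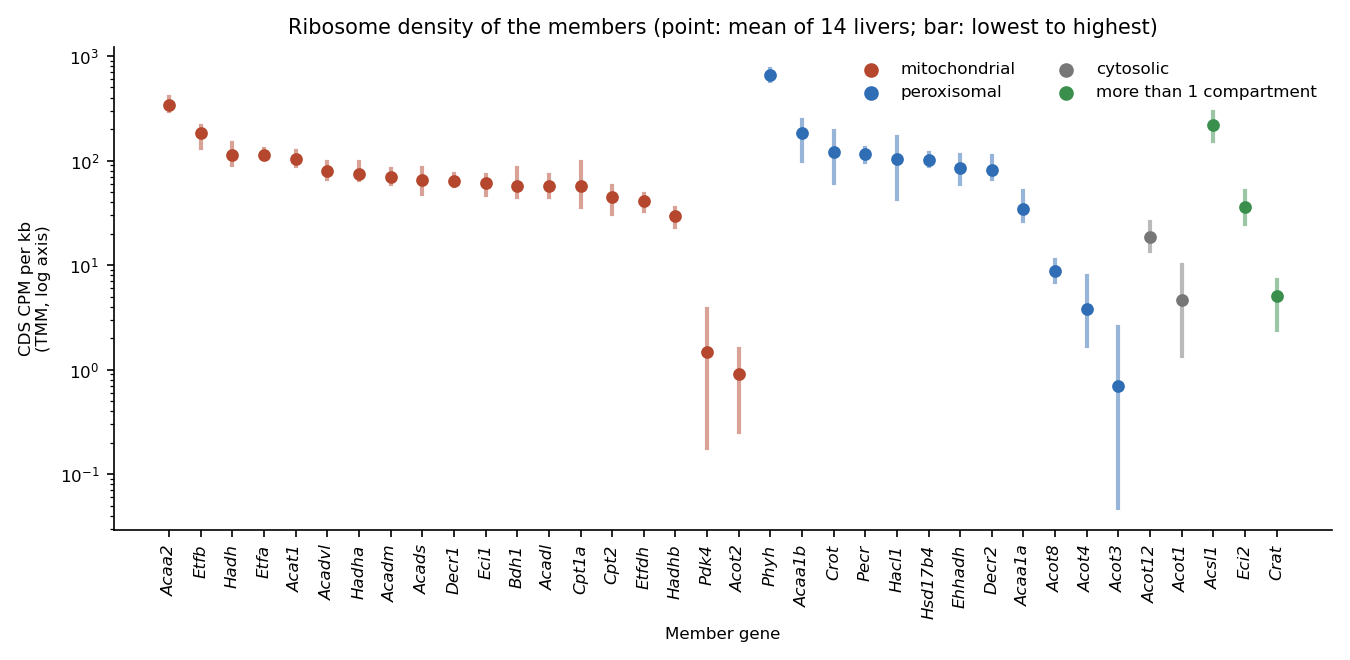
Ribosome density (CPM of coding reads per kb, log axis) of each of the 36 members, as the mean of 14 livers with a bar from the lowest to the highest library, grouped by compartment. Phyh is highest at 662, and the widest bars belong to Acot3 and Pdk4 at the low end.

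A fit with each time as its own level called 8 of the 36 members (Cpt1a, Pdk4, Acot3, Crot, Hacl1, Acot1, Eci2 and Crat), where it called 7.06% of all transcripts. All 8 were also called by the cosine fit. Bdh1 had an adjusted p of 0.0510 in it, Acaa1a 0.0649, Acot12 0.0672, Acot4 0.0837, Acsl1 0.0859 and Ehhadh 0.144.

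CT0 and CT24 are the same clock time 1 day apart. By edgeR's quasi-likelihood test, 0 of the 36 members and 0 of all 17299 transcripts (0.0%) differed between them. At an unadjusted p under 0.05 it was 1 member, Acot8, with -0.40 on the log2 scale from CT0 to CT24, and 866 transcripts (5.01%). The members' differences ran from -0.50 in Acot2 to 0.62 in Pdk4, both on few counts, with a median of -0.0014.

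Other genes of the pathway were taken from lists that the 36 members are not part of. Of 38 further genes of fatty acid oxidation and ketone metabolism, 35 passed the count minimum and 7 were called (20.0%, against 11.2% of all transcripts), 2 with a peak by day and 5 by night. The median peak-to-trough difference of the 35 was 0.31, against 0.44 for all transcripts tested. Their median density was 19.9, against 2.29 for all transcripts tested. The share called among transcripts of a level like theirs was not taken. The lowest adjusted p belonged to Acacb, the acetyl-CoA carboxylase at the mitochondrial membrane whose product malonyl-CoA inhibits CPT1. Acacb had a median of 35.0 CPM, with 1.87 ± 0.19 and a peak at CT22.0 ± 0.411 h (adjusted p = 3.55e-06), where the fitted peak of Cpt1a was at CT11.6. Acot11, a thioesterase, had 1.45 ± 0.25 with a peak at CT16.5 (adjusted p = 9.19e-04), and Acsl4, an acyl-CoA synthetase, 0.99 ± 0.20 at CT18.04 (adjusted p = 0.00358). Acox2, the oxidase of branched chains and bile acid precursors, had 0.60 ± 0.10 at CT2.05 (adjusted p = 0.00550), and Acsl5 0.68 ± 0.13 at CT0.263 (adjusted p = 0.00643).

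Of 14 genes of PPARα, its partners and known targets, 13 passed the minimum and 6 were called (46.2%, against 11.2% of all transcripts), 2 with a peak by day and 4 by night. The count was 3 without CT0 replicate 2 (9.65% of all transcripts), 3 without CT8 replicate 2 (9.41%), 2 without both CT0 libraries (8.15%) and 2 by JTK_CYCLE on total counts (17.6%). The median peak-to-trough difference of the 13 was 0.91. Their median density was 27.3, against 2.29 for all transcripts tested, and here too no share was taken at a like level. Ppara itself, the receptor that fatty acids activate, ranged over 30.0 to 87.1 CPM with 0.82 ± 0.18 and a peak at CT11.1 ± 0.992 h (adjusted p = 0.00871). Plin2, which coats lipid droplets, had 0.98 ± 0.18 at CT1.97 (adjusted p = 0.00199), and Pex11a, which divides peroxisomes, 1.07 ± 0.21 at CT15.9 (adjusted p = 0.00262). The fatty acid ω-hydroxylases Cyp4a10 and Cyp4a14 had 1.42 ± 0.41 at CT20.5 and 2.78 ± 0.75 at CT20.0 (adjusted p = 0.0304 and 0.0306).

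Of 15 genes of peroxisome biogenesis, 1 was called (6.67%, against 11.2% of all transcripts). The count was 0 with total counts as scale, where 8.25% of all were called, 2 by the DESeq2 likelihood ratio test (15.6%) and 7 by JTK_CYCLE on TMM values (16.5%). The 1 called was Pex26, which anchors the import machinery to the membrane, with 1.14 ± 0.24 and a peak at CT15.4 (adjusted p = 0.00343). The median peak-to-trough difference of the 15 was 0.29.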

How the data were processed

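Ribosome-protected fragments of 14 mouse livers were analysed from per-transcript counts that the authors deposited, with reads and lengths for the 5′UTR, coding sequence and 3′UTR of 28167 RefSeq transcripts (27840 matched to a gene symbol). By their methods, the authors clipped adapters, removed ribosomal RNA reads and mapped the rest to mm10. The submitters' processing notes name Bowtie2 2.1.0.0, SAMtools 0.1.19.0 and FastQC. For density profiles the authors used reads with a unique location. Whether the counts follow the same rule is not given in the sources used here, and reads that fit near-identical genes may be missing or counted in each. Densities use the deposited lengths of the regions, which exceed those of the GRCm38.p6 annotation by about 1 base per exon.

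The 3 regions were added up, and transcripts averaging 10 counts or more per library were kept (17299). Counts were scaled by TMM and fitted with edgeR 4.0.16 in R 4.3.3 (glmQLFit, glmQLFTest) on a 24-h cosine and sine, on 7 separate times, and for CT24 against CT0. The p-values of edgeR were adjusted over all transcripts by Benjamini-Hochberg. CT24 was taken from the titles, since another label gives CT00 for it. JTK_CYCLE was rewritten with tied values treated as ties. Its p-values were adjusted only over the peak times tried within a transcript, not over transcripts. DESeq2 1.42.0, with Benjamini-Hochberg adjustment over transcripts, served as another alternative. Fits were tested on simulated data. Python 3.11 with numpy 2.4.6, pandas 2.3.3 and matplotlib 3.10.9 was used. Shared coding windows of 28 bases were searched for in 27824 transcripts.

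The members and gene lists were chosen with earlier results of these data known. Values in all 14 libraries are given for the called members and for a fixed set of the others, and of each further list up to 5 called genes with the lowest adjusted p are named. The range of depths is in the report, and counts of a few reads carry a counting error that the fit includes. Alternatives changed the scaling, the count minimum, the region, the handling of transcripts, the test, the pairing, and the libraries and times included.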

Additional observations from a re-analysis of the deposited data

How the results depend on the processing

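The number of members called by the cosine fit was 14 under 21 of 30 alternatives and between 10 and 19 under all of them. It was 10 with total counts as scale, where Cpt1a, Bdh1, Acaa1a, Acot12 and Eci2 lost their call, and 10 by JTK_CYCLE on that scale, where the same 5 and Acot4 did, 3 mitochondrial members were called and 17.6% of all transcripts were. It was 17 by JTK_CYCLE on TMM values, where Acot4 and Acot12 lost their call, and 19 by the DESeq2 likelihood ratio test. The calls by JTK_CYCLE rest on p-values that were not adjusted over transcripts. The mitochondrial count of 3 was 1 with total counts as scale, 6 by DESeq2 and 7 by JTK_CYCLE on TMM values, where the share of all transcripts called was 8.25%, 15.6% and 16.5% (11.2% as reported). The count over the 7 separate times, 8, was 14 with total counts as scale, where 12.7% of all transcripts were called (7.06% as reported). Which scale is nearer to the amounts in the tissue was not tested. Among the 29 members that share at most 5% of their windows, an alternative chosen after seeing the data, 9 were called in all and 3 of the peroxisomal ones. In the cosine fit, leaving out each library in turn, with 8.61% to 11.9% of all transcripts called, gave 12 to 15 called members, 3 to 4 mitochondrial and 4 to 7 peroxisomal ones. Acot4 lost its call without CT4 replicate 1, CT8 replicate 2, CT16 replicate 1 or CT16 replicate 2, and Ehhadh without CT8 replicate 2. Without CT20 replicate 2, 14 members were called, and with the counts of CT16 replicate 2 divided by 2 it was also 14. Of the 14 called members, 7 (Hacl1, Crot, Crat, Pdk4, Acot1, Acot3 and Acsl1) were called under every alternative they were tested in, and 14 of the 36 members were called under none. In no alternative in which a called member stayed called did its fitted peak move by over 6 h. Low counts limit Acot3, Acot2 and Pdk4.

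The replicate numbers did not pair the mice: over 21 pairs of times, deviations of mice with the same number correlated at -0.123 to 0.303 (median 0.0317), and 3 were above 0.1. With the replicate number as a block, 14 members were called, and no call was lost.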
